A study of Mus musculus with 5 samples.

Results

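The UDP-glucuronosyltransferases (Ugt) and cytosolic sulfotransferases (Sult) were examined in livers of mouse embryos at E18.5, shortly before birth. Members were the genes whose symbol begins with Ugt1, Ugt2, Ugt3 or Sult and a family number, with pseudogenes left out. They made up 34 of the 23022 genes in the table analysed, 17 Ugt and 17 Sult genes. By subfamily there were 8 Ugt1, 7 Ugt2, 2 Ugt3, 4 Sult1, 8 Sult2 and 5 other Sult genes. GENCODE M21 annotates 8 further genes of these names that had no row in the table and were not analysed here. They are Sult1c1, Sult1e1, Sult2a7, Sult3a2, Ugt1a8, Ugt2a1, Ugt2a2 and Ugt2b37.

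Poly(A)-selected RNA of whole liver was sequenced in 5 libraries. The 4N group (3 libraries) came from Hhex knockout embryos that had been injected as blastocysts with tetraploid embryonic stem cells carrying td-Tomato. The WT group (2 libraries) came from normal embryos of the same day, so ploidy, cell origin, host genotype and embryo manipulation differ together and cannot be told apart. The labels do not say how many cell lines or litters were used, nor how much of each 4N liver came from the injected cells, and p-values measure only the spread between these samples. The authors deposited 1 comparison of the groups, with a mean normalized count over all libraries, a log2 fold change, its standard error (SE) and p-values for each gene. Single libraries were not analysed here. Depth per library is therefore unknown, and the mean normalized counts summed to 78112274 over all genes.

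Both enzyme families make small molecules more soluble so that they can leave the body in bile or urine. Ugt enzymes sit in the endoplasmic reticulum membrane and transfer glucuronic acid from UDP-glucuronic acid to bilirubin, steroids, bile acids and drugs. Sult enzymes are mostly soluble and transfer sulfate from the donor PAPS to phenols, catecholamines, steroids and bile acids. The liver is the main site of both reactions, and several of these genes are known to rise around or after birth.

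The Ugt1 genes lie in a single locus on chromosome 1 in which alternative first exons, each with a promoter of its own, are spliced to the same last 4 exons. The sequences below show this junction in GENCODE M21 transcripts, because it bears on how reads of these genes can be told apart. The 20 bases before the junction are in lower case, and the 20 bases of the shared exon are in capitals.
Ugt1a1: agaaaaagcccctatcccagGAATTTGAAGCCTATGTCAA
Ugt1a9: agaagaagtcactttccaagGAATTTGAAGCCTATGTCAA
Ugt1a10: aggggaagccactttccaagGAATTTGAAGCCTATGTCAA
Ugt1a2: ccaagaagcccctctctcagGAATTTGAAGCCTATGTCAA
Ugt1a6a: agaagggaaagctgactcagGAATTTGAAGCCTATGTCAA
The capitals were the same in all 9 annotated Ugt1 genes, and 735 coding bases lay in the shared exons of each. Over the longest coding transcripts of the 9 genes, the bases before the junction took 6 forms. Those of Ugt1a5 equalled those of Ugt1a2, and those of Ugt1a6b and of the longest Ugt1a7c transcript equalled those of Ugt1a6a. Of windows of 100 bases, 57.2% of the Ugt1a1 transcript and 58.5% of the Ugt1a9 transcript also occurred in another gene's transcript. Every such window of the longest Ugt1a6a transcript did. How the authors assigned shared reads is not given in the sources used here, so Ugt1 values are uncertain in that respect, Ugt1a6a, Ugt1a6b and Ugt1a7c most of all.

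Most transcripts of these enzymes were less abundant in 4N than in WT liver. With an adjusted p under 0.05 in the authors' deposited table, 20 of the 34 members were called lower, 1 was called higher and 13 were not called. Over all 23022 genes, 7.41% fell and 7.94% rose, and 15.3% changed in either direction. The median log2 fold change of the members was -2.36, against -0.00 over all genes. Of the 20 that fell, 19 fell by at least 2-fold and 12 by at least 10-fold, a size that 1.45% of all genes passed. Of the 25 members whose mean reached 50 normalized counts, 19 fell, against 9.82% of all genes at that level. The other 9 members had means under 50, where few changes can be detected.

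**Figure D1:**
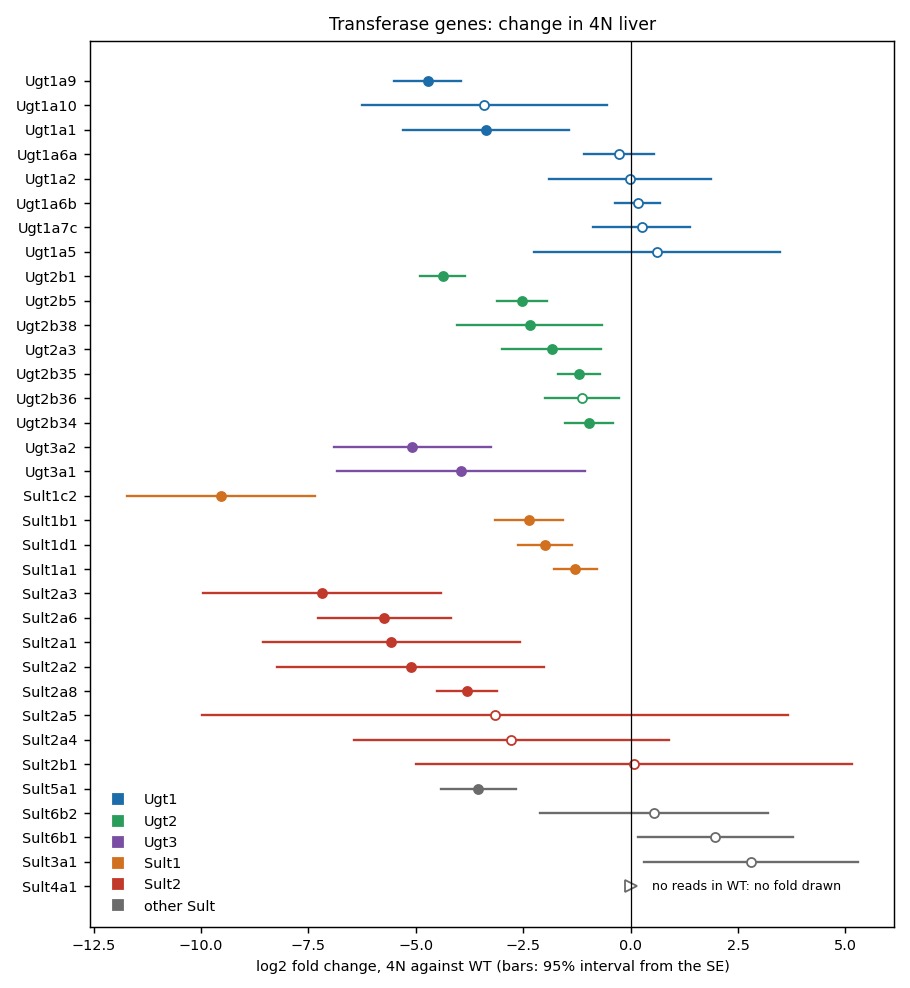
Log2 fold change of 4N against WT liver for each of the 34 genes, grouped by subfamily, from the authors' deposited table; bars are 95% intervals from the SE and filled points passed an adjusted p under 0.05. All Ugt2, Ugt3 and Sult1 points lie below 0, whereas Ugt1 splits into 3 points below -3 and 5 near 0, and Sult4a1 has no fold because WT held no reads.

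With p-values from a t distribution (3 degrees of freedom) instead of the normal one, 0 members and 0 of all 23022 genes passed. At an unadjusted p under 0.05 by this t reference stood 18 of the 34 members, 17 of them lower, and 2513 of the 23022 genes. Recentring on plasma protein genes, which adds 0.62 to every log2 fold change and so to the median of all genes, gave 15 lower and 4 higher members and 821 lower and 7313 higher genes over the table. Of the 26 plasma protein genes, 14 were themselves called lower and 0 higher before recentring. These calls rest on the original scaling, so they cannot tell which zero is right.

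The labelled tissue was checked against marker genes. Hepatocyte markers were abundant in both groups, at 12.8% of summed fitted counts in WT and 11.6% in 4N, and 3 of 9 were lower and 0 higher in the authors' deposited table. Erythroid markers rose in 9 of 10 cases, from 1.27% to 4.24% of summed fitted counts. In bulk liver, fewer cells of a type and less RNA per cell cannot be told apart. Stellate cell markers summed to 0.042% in WT and 0.067% in 4N, with 2 of 6 higher (Col1a1 and Reln) and 1 lower. Of 6 macrophage markers 2 were higher and 1 lower, and of 6 cholangiocyte and 6 endothelial markers 1 each was lower. Of 4 intestine markers Vil1 was higher and 2 were lower, Fabp2 among them, and of 3 kidney markers Lrp2 was higher. The part of these cell types in the falls of Ugt and Sult genes was not tested.

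The Ugt1 genes did not move together. Ugt1a1, the enzyme that conjugates bilirubin, had fitted means of 2919 normalized counts in WT and 281 in 4N. It fell by 3.38 on the log2 scale (SE 0.98, adjusted p = 0.0065) per the authors' deposited table, a 10.4-fold drop with a 95% interval of 2.72 to 39.5. Ugt1a9, which acts on bulky phenols, fell from 1131 to 42.8 (log2 fold change -4.72, SE 0.40, adjusted p = 8.5e-30) per the authors' deposited table. Ugt1a10 was at 39.7 in WT and 3.74 in 4N and did not pass (-3.40, SE 1.45, adjusted p = 0.099, per the authors' deposited table).

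The other 5 Ugt1 genes lay close to equality. Ugt1a6b, a phenol-conjugating gene, had fitted means of 636 in WT and 712 in 4N. Its log2 fold change of 0.16 (SE 0.27) per the authors' deposited table has a 95% interval of -0.36 to 0.69. Ugt1a6a stood at 338 and 280 (-0.27, SE 0.41, in the authors' deposited table, interval -1.08 to 0.53). Taken from the normal distribution, the intervals of Ugt1a9 and Ugt1a1 overlap neither of these, but a t reference would widen all of them. The coding regions of the longest Ugt1a6a and Ugt1a7c transcripts are identical over 1593 bases, and that of Ugt1a6b is 98.4% identical to both. These 3 values are therefore uncertain. Only the longest of 3 coding Ugt1a7c transcripts was compared, so the identity need not hold for the others. The remaining Ugt1a7c, Ugt1a5 and Ugt1a2 had means of 86.4, 10.1 and 22.1 normalized counts, and log2 fold changes of 0.26, 0.61 and -0.01 with SEs of 0.58, 1.46 and 0.96 in the authors' deposited table. A 2-fold rise lies within the interval of each of these low genes. After recentring on plasma proteins Ugt1a6b passed as higher (0.78, adjusted p = 0.013).

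Ugt2 genes, whose enzymes conjugate steroids, bile acids and many drugs, were lower throughout, by very different amounts. All 7 had negative values and 6 passed. Ugt2b1 fell most, from a fitted mean of 8363 in WT to 404 in 4N (-4.37, SE 0.27, adjusted p = 7.4e-56, per the authors' deposited table). Ugt2b5 went from 10414 to 1806 (-2.53, SE 0.30, adjusted p = 3.4e-15, per the authors' deposited table). The 95% intervals of Ugt2b1 and Ugt2b5 do not overlap. Ugt2b35 fell from 8792 to 3812 (-1.21, SE 0.25, adjusted p = 2.9e-05, per the authors' deposited table).

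Ugt2b34 was the most abundant Ugt gene per kb of transcript. Of the Ugt genes called lower it fell least, from 51738 to 26381. Its value of -0.97 (SE 0.29, adjusted p = 0.0074, per the authors' deposited table) gives a 1.96-fold drop, interval 1.33 to 2.90. Ugt2b36 had a similar value but a wider error and did not pass (-1.12, SE 0.44, adjusted p = 0.064, per the authors' deposited table). It passed when p-values were adjusted over genes whose mean reached 50, or after recentring on abundant genes (adjusted p = 0.049 each). The less abundant Ugt2a3 (-1.84, SE 0.58, adjusted p = 0.015) and Ugt2b38 (-2.35, SE 0.86, adjusted p = 0.044) also fell per the authors' deposited table. Ugt2b5 and Ugt2b38 share sequence with each other and with Ugt2b37, which was not analysed here. Of their 100-base windows, 24.7% and 24.2% occur in another gene, and how these divide between the genes was not counted. The coding regions of Ugt2b5 and Ugt2b38 form the closest Ugt2 pair at 97.0% identity. After recentring on plasma proteins 2 of the 7 still passed, Ugt2b1 and Ugt2b5.

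The 2 Ugt3 genes, whose enzymes favour UDP-sugars other than UDP-glucuronic acid, both fell. Ugt3a2 went from a fitted mean of 5467 to 162 (-5.08, SE 0.93, adjusted p = 1.5e-06, per the authors' deposited table). Its neighbour Ugt3a1 went from 869 to 56.4 and passed narrowly (-3.94, SE 1.48, adjusted p = 0.049, per the authors' deposited table). The call of Ugt3a1 ended with genes lacking reads in a group left out (adjusted p = 0.051) and after recentring on plasma proteins (adjusted p = 0.064).

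All 4 Sult1 genes fell. Sult1a1, the main phenol sulfotransferase, was the most abundant Sult gene per kb and fell from 17584 to 7222 (-1.28, SE 0.25, adjusted p = 9.4e-06, per the authors' deposited table). Sult1d1, which acts on catecholamines, fell from 9249 to 2327 (-1.99, SE 0.32, adjusted p = 1.6e-08, per the authors' deposited table). Sult1b1, which sulfates thyroid hormones, fell from 601 to 117 (-2.37, SE 0.41, adjusted p = 2.4e-07, per the authors' deposited table). Sult1c2 had the largest drop of all members, from a fitted 473 normalized counts to 0.638, or about 1.91 over the 3 libraries of 4N. Its fold of 741 (log2 fold change -9.53, SE 1.12, adjusted p = 1.5e-15, per the authors' deposited table) thus rests on very few reads and has an interval of 163 to 3378.

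Sult2a genes, which encode hydroxysteroid and bile acid sulfotransferases, had low values in 4N. All 7 were negative, 5 passed, and their median log2 fold change was -5.12. With Sult2b1 included, the median of the 8 Sult2 genes was -4.47, close to the -4.51 of the 2 Ugt3 genes. Sult2a8, a bile acid sulfotransferase, was the most precisely measured and fell from 3019 to 214 (-3.82, SE 0.36, adjusted p = 1.9e-24, per the authors' deposited table). Sult2a1 fell from 3312 to 69.6 with a much larger error (-5.57, SE 1.53, adjusted p = 0.0032, per the authors' deposited table), which leaves an interval of 5.97-fold to 379-fold. Sult2a2 went from 819 to 23.6 (-5.12, SE 1.59, adjusted p = 0.012, per the authors' deposited table).

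Lower in abundance, Sult2a6 went from 262 to 4.94 (-5.73, SE 0.79, adjusted p = 2.1e-11, per the authors' deposited table). Sult2a3 went from 94.0 to 0.646, or about 1.94 counts over the 4N libraries (-7.18, SE 1.41, adjusted p = 9.7e-06, per the authors' deposited table). Sult2a5 (-3.15, SE 3.48) and Sult2a4 (-2.78, SE 1.87) did not pass per the authors' deposited table. The 7 Sult2a coding regions had pairwise identities of 69.1% to 97.9%, with Sult2a1 and Sult2a2 as the closest pair. In 100-base windows 34.6% of Sult2a2, 16.6% of Sult2a5, 11.4% of Sult2a1 and 5.76% of Sult2a4 occurred in another gene, so these 4 values are uncertain. None of the Sult2a3, Sult2a6 or Sult2a8 windows did. Sult2b1, a cholesterol and pregnenolone sulfotransferase on another part of chromosome 7, was barely detected, at a mean of 4.91 (0.07, SE 2.59, per the authors' deposited table).

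The remaining Sult genes were mixed. Sult5a1 fell from 847 to 72.6 (-3.54, SE 0.44, adjusted p = 8.6e-14, per the authors' deposited table). Sult3a1, an amine sulfotransferase, had fitted means of 67.8 in WT and 473 in 4N and did not pass (2.80, SE 1.27, adjusted p = 0.13, per the authors' deposited table). Sult6b1 stood at 12.2 and 48.0 (1.97, SE 0.92, adjusted p = 0.15, per the authors' deposited table). Both passed as higher after recentring on plasma proteins, with adjusted p-values of 0.023 and 0.018. Sult4a1, known mainly from brain, was the 1 member called higher (adjusted p = 0.0047 in the authors' deposited table). It had no reads in WT, judging by its place at the lowest value the fit allows, and a fitted 23.5 normalized counts in 4N, so no fold is given. Of 4 neural markers, at low means, 0 were called higher and 1 lower, and the part of neural cells in the Sult4a1 reads was not tested. Sult6b2 had a mean of 9.88 and did not pass (0.55, SE 1.35, per the authors' deposited table).

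**Figure D2:**
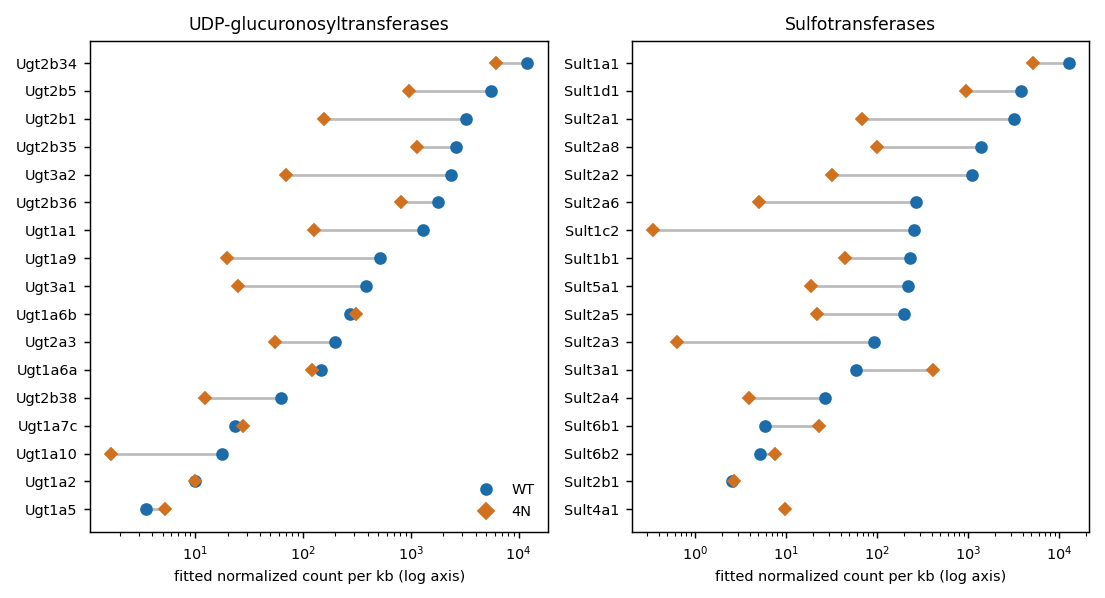
Fitted mean normalized count per kb of transcript in WT (circles) and 4N (diamonds) for each Ugt gene (left) and Sult gene (right), on log axes, with genes ordered by the WT level. Ugt2b34 and Sult1a1 stay at the top in both groups while most genes below them shift left by differing amounts.

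Levels were compared between genes per kb of the longest coding transcript, and the sums below carry no error because single libraries were not analysed here. Ugt2b34 and Sult1a1, the most abundant gene of each family, fell less than most others, and the make-up of each family differed between the groups. Summed over 17 genes, the Ugt level was 3.06 times higher in WT than in 4N, and 4.80 times higher without Ugt2b34. Ugt2b34 held 39.3% of the Ugt sum in WT and 61.3% in 4N. Ugt2b1 held 10.6% in WT and 1.57% in 4N, and Ugt3a2 held 7.68% and 0.70%. Per kb, Ugt2b34 stood at 11999 normalized counts in WT and 6118 in 4N, Ugt2b5 at 5605 and 972, and Ugt2b35 at 2617 and 1135. Ugt2b35 therefore held a larger share in 4N (11.4%) than in WT (8.57%) although it fell. Ugt1a1 held 4.30% in WT and 1.27% in 4N. How reads shared among Ugt1 genes were assigned is not given, so Ugt1 levels per kb and shares of the sum are uncertain. Members with at least 5% of the Ugt sum numbered 6 in WT and 4 in 4N. The summed Sult level was 3.41 times higher in WT, and 6.40 times higher without Sult1a1. Sult1a1 held 54.0% of the Sult sum in WT and 75.5% in 4N. Sult2a1 held 13.6% in WT and 0.98% in 4N, whereas Sult3a1 held 0.25% and 5.88%. By level per kb, Sult3a1 ranked 12 of the 17 Sult genes in WT and 3 in 4N, although its difference did not pass the test. Sult1d1 stood second in both groups, at 3822 and 961 normalized counts per kb.

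The precision of these values varied widely at like abundance. For each member the SE was set beside the median SE of genes whose mean lay within 2-fold of its own. In 9 of the 34 members the SE exceeded that of 95% of such genes, by values in the authors' deposited table. The ratio was 5.82 for Sult2a1, 5.80 for Sult2a5, 4.30 for Sult2a2, 4.15 for Ugt3a1, 3.79 for Ugt3a2, 3.74 for Ugt1a1 and 3.32 for Sult3a1. It was 2.46 for Sult1c2 and 1.79 for Ugt2b36. Without these 9 genes, which were singled out once the values were known, 14 of the other 25 members fell and 1 rose.

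Sult2a1, Sult2a2 and Sult3a1 are known to be higher in females than in males in adult mouse liver. The Y-linked genes Ddx3y, Eif2s3y, Kdm5d and Uty had SEs of 2.91, 2.79, 2.71 and 2.71 in the authors' deposited table. These were 10.8 to 12.8 times the median of genes of like mean, so their values spread widely within a group. Their log2 fold changes ran from -1.31 to -0.82, and 0 of the 4 passed the test. With such SEs a difference could hardly pass, so the lack of calls does not show that the groups were alike in sex. The part of sex in the wide errors of Sult2a and Sult3a1 was not tested.

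**Figure D3:**
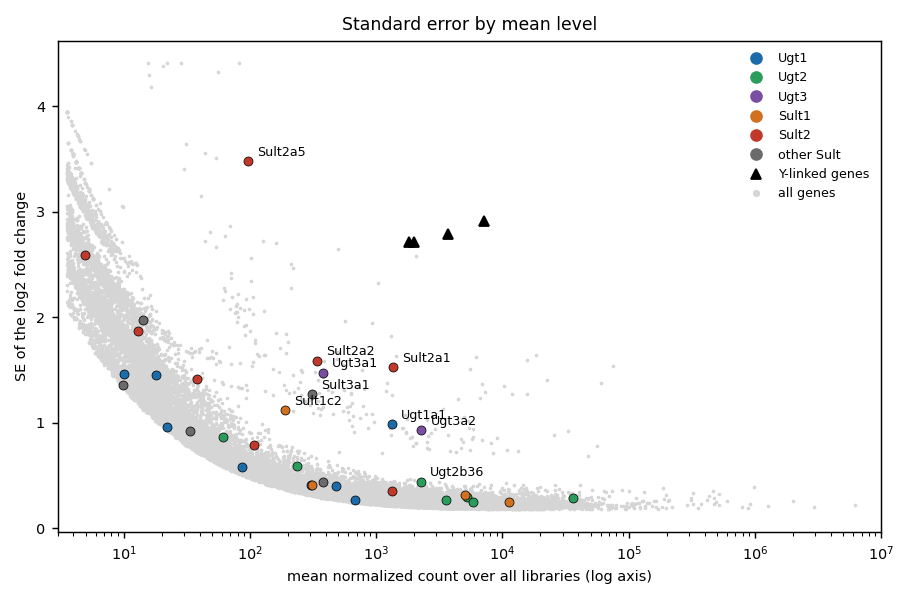
SE of the log2 fold change against the mean normalized count (log axis) for all genes (grey), the 34 members (coloured by subfamily) and 4 Y-linked genes (triangles), from the authors' deposited table. The 9 named members lie above the band of genes of like mean, while most others lie within it.

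By gene order in GENCODE M21, 26 of the 34 members lie in 4 clusters. In 3 of these most members fell while 0 flanking genes were called lower. The shares over all genes were 7.41% lower and 7.94% higher. Of these flanking genes, Jchain, Obox4-ps1, Vmn1r90 and Spef2 were not called, at means of 5.90, 5.70, 28.0 and 38.3 normalized counts. Few changes can be detected at such means. On chromosome 5, where 7 Ugt2 genes neighbour Sult1b1 and Sult1d1, 8 of 9 members fell, and 0 of the 3 listed genes on either side changed. On chromosome 7, 5 of 7 Sult2a genes fell, while 0 of 6 flanking genes fell and 2 rose. The risers included the DNA ligase gene Lig1. On chromosome 15 both Ugt3 genes fell, and of 6 flanking genes 1 rose, the ubiquitin ligase gene Skp2. On chromosome 1, by contrast, 2 of 8 Ugt1 genes fell, and the 6 flanking genes held 1 lower and 2 higher. Other listed genes lie between members, mostly pseudogenes and predicted genes, and 0 of them passed the test. On chromosome 5 these 5 genes had a median log2 fold change of -1.78, near the -1.99 of the members. On chromosome 7 the 6 such genes had means under 8 normalized counts, where a call is hardly possible. Among them Kat6b-ps2, Tmem167-ps2, Rpap3-ps2 and Obox8 sat at the lowest value the fit allows, so no median is given. On chromosome 1 the 7 such genes had a median of 0.77. Since 0 of the genes between members passed, whether low values extend beyond the members was not tested. On chromosome 1 Ugt1a9 and Ugt1a1 lie on either side of the genes whose values were near 0.

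**Figure D4:**
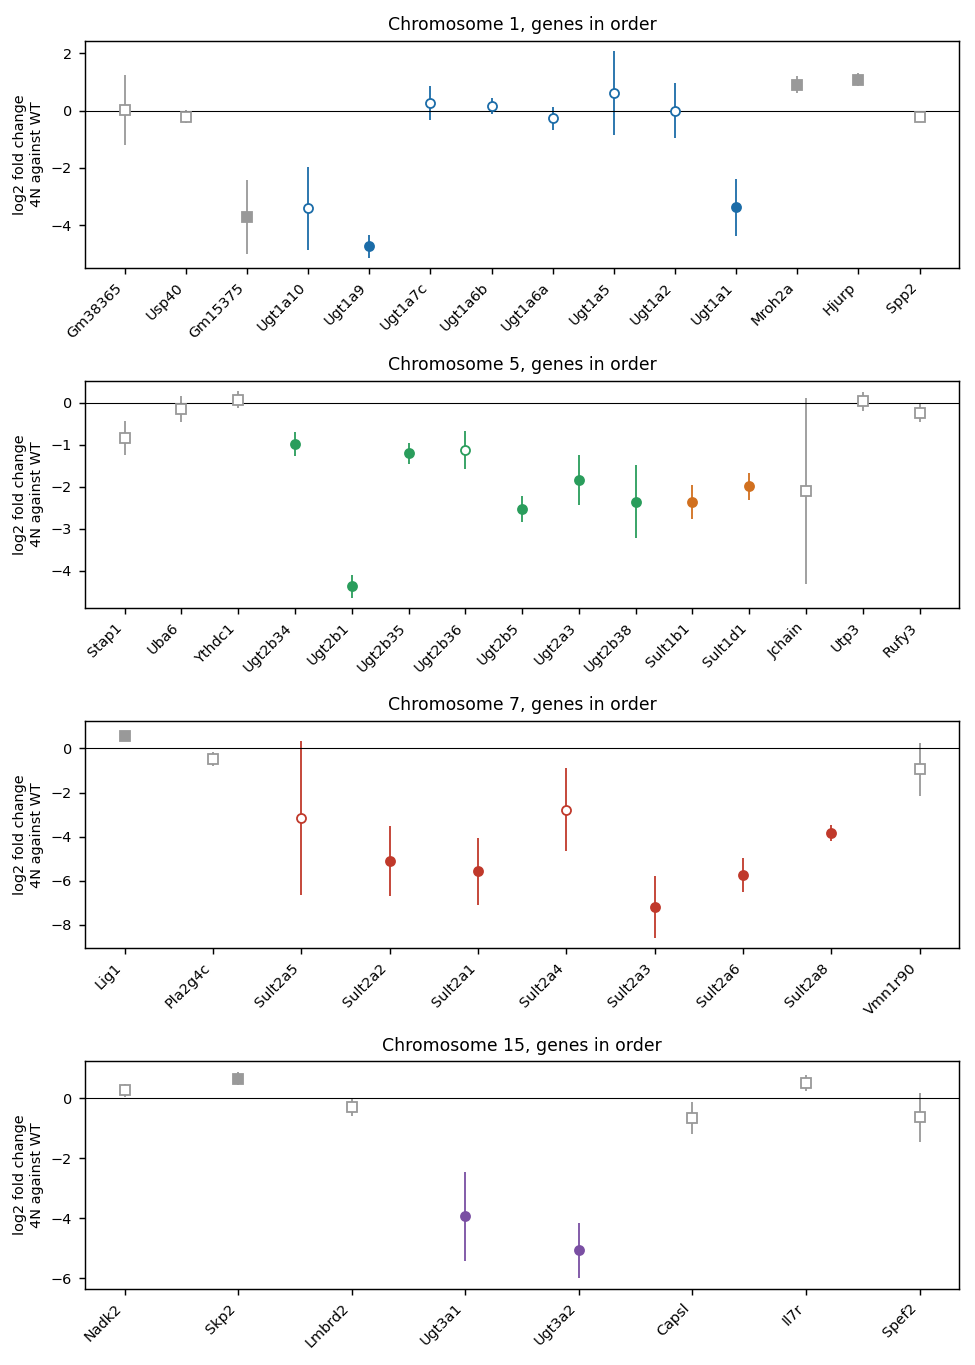
Log2 fold change of 4N against WT (bars: SE) for members (circles) and up to 3 listed genes on each side (grey squares), in genomic order in 4 clusters, from the authors' deposited table; filled symbols passed, and pseudogenes and other genes between members are not drawn. Members on chromosomes 5, 7 and 15 lie below 0, and on chromosome 1 the low points stand at both ends of a run near 0.

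Because several members that lie side by side fell together, RefSeq promoter windows were searched on both strands for short motifs. Each window runs from 250 bases before to 50 bases after the start, in GRCm38.p6, and 29 of the 34 members had at least 1. These members had 32 windows in all, and a member counted if any of its windows matched. The share over all promoters is of single windows, so the 2 shares differ in unit for every motif. The TATA motif TATAAA occurred in 6 of 29 members (20.7%) and in 13.6% of all 32851 windows. It occurred in 4 of the 17 lower members with a window and in 2 of the 12 others. The sequences below show it in capitals in 3 Sult2a genes of the chromosome 7 cluster and in Ugt3a1. Each is a stretch of 60 bases before the start, at bases -60 to -1 except in Sult2a6, where it covers -76 to -17. Sult2a8 has more than 1 listed start, and the one with the match near it is given.
Sult2a5, chr7:13623907-13623966, plus strand: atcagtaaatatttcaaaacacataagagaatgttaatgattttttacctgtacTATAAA
Sult2a6, chr7:14254887-14254946, minus strand: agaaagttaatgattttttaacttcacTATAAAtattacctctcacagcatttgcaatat
Sult2a8, chr7:14438552-14438611, minus strand: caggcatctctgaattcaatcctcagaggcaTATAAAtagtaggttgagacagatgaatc
Ugt3a1, chr15:9279769-9279828, plus strand: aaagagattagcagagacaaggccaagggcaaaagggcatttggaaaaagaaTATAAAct
The distance of the capitals from the start differs among the 4, and Sult2a5 did not pass the test while the other 3 fell.

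The other motifs searched were found in few members. The core of the aryl hydrocarbon receptor element, GCGTG, occurred in 4 of 29 members (13.8%) and in 32.4% of all windows. The antioxidant element TGACNNNGC occurred in 0 of 29 and in 12.4%. The HNF4 motif CAAAGTCCA occurred in 1 of 29 (3.45%, in Sult1b1) and in 0.47%. These matches describe letters only.

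Genes that supply the donors of both reactions were measured too, from lists chosen with earlier results of these data known. Over all genes, 7.41% fell and 7.94% rose. Of 4 genes for UDP-glucuronic acid, 1 rose and 2 fell. Ugdh, which makes UDP-glucuronic acid, rose from 1730 to 5734 (1.73, SE 0.29, adjusted p = 5.6e-08, per the authors' deposited table). Slc35d1, which carries it into the endoplasmic reticulum, fell (-1.10, SE 0.19), as did the related carrier Slc35d2 (-0.79, SE 0.27), per the authors' deposited table. Of 10 genes for PAPS and sulfate, 4 fell and 0 rose. Papss2, a PAPS synthase, fell from 9536 to 3312 (-1.53, SE 0.23, adjusted p = 1.0e-09), whereas its isoenzyme Papss1 did not pass (0.41, SE 0.22), per the authors' deposited table. The sulfite oxidase Suox (-1.66, SE 0.21), the sulfate carrier Slc26a1 (6735 to 3365, SE 0.19) and the PAPS carrier Slc35b3 (-0.67, SE 0.22) fell per the authors' deposited table. Recentring on plasma proteins left 1 lower gene for UDP-glucuronic acid and 2 lower and 2 higher for PAPS and sulfate, and against a 1.5-fold change the lower counts were 0 and 2.

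Carriers were measured in 2 lists, one for uptake into hepatocytes and one for export of conjugates, and the difference between the lists was not tested. Over all genes, 7.41% fell and 7.94% rose. All 7 hepatic uptake carriers passed, 6 lower and 1 higher, with a median of -4.28. Slco1b2, which takes up bilirubin and bile acids, fell from 41097 to 2195 (-4.23, SE 0.29, adjusted p = 1.9e-45, per the authors' deposited table). Slco1a1 fell as well (-4.28, SE 0.31, adjusted p = 7.3e-42, per the authors' deposited table). Slco1a4 passed as lower with no 4N reads, so no fold is given. The bile acid carrier Slc10a1 fell less and stayed abundant, from 39890 to 11348 (-1.81, SE 0.23, adjusted p = 8.8e-14, per the authors' deposited table). Slco2b1 rose (2.00, SE 0.54, adjusted p = 0.0026, per the authors' deposited table), a call that ended against a 1.5-fold change. Of 6 exporters of conjugates, 1 fell, the bilirubin glucuronide exporter Abcc2 (-0.75, SE 0.22, adjusted p = 0.0081, per the authors' deposited table), and 0 rose. Recentring on plasma proteins gave 0 lower and 2 higher exporters, and against a 1.5-fold change 0 were lower.

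Of 4 genes listed for the breakdown of heme to bilirubin, 2 rose and 0 fell, where 7.94% of all genes rose and 7.41% fell. The risers were Hmox1, which opens heme (1.43, SE 0.22, adjusted p = 2.1e-09), and Blvrb (1.08, SE 0.28, adjusted p = 0.0015), per the authors' deposited table. Blvra (0.26, SE 0.23) and Hmox2 (-0.28, SE 0.23) did not pass per the authors' deposited table. Erythroid markers rose in 9 of 10 cases in the same comparison, and their part in the rises of Hmox1 and Blvrb was not tested. Of 4 genes that remove glucuronic acid or sulfate, 1 fell, the sulfatase gene Arsg (-1.76, SE 0.38), and the glucuronidase gene Gusb did not pass (0.17, SE 0.21), per the authors' deposited table.

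Of 19 regulators known to act on these genes, 4 fell, 1 rose and 14 were not called, where 7.41% of all genes fell and 7.94% rose. Nr1i3, the xenobiotic receptor CAR, fell from 1153 to 56.2 (-4.36, SE 0.41, adjusted p = 6.5e-24, per the authors' deposited table). The oestrogen receptor gene Esr1 (-2.43, SE 0.48, adjusted p = 9.4e-06), the xenobiotic receptor gene Nr1i2 (-0.94, SE 0.26) and the bile acid receptor gene Nr1h4 (-0.73, SE 0.21) fell per the authors' deposited table. Foxa1 rose (0.79, SE 0.29, adjusted p = 0.044, per the authors' deposited table). This call ended after recentring on abundant genes, at an adjusted p under 0.01 and against a 1.5-fold change, each of which left 0 regulators higher. Recentring on plasma proteins gave 2 lower and 7 higher regulators, and against a 1.5-fold change 2 were lower.

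**Figure D5:**
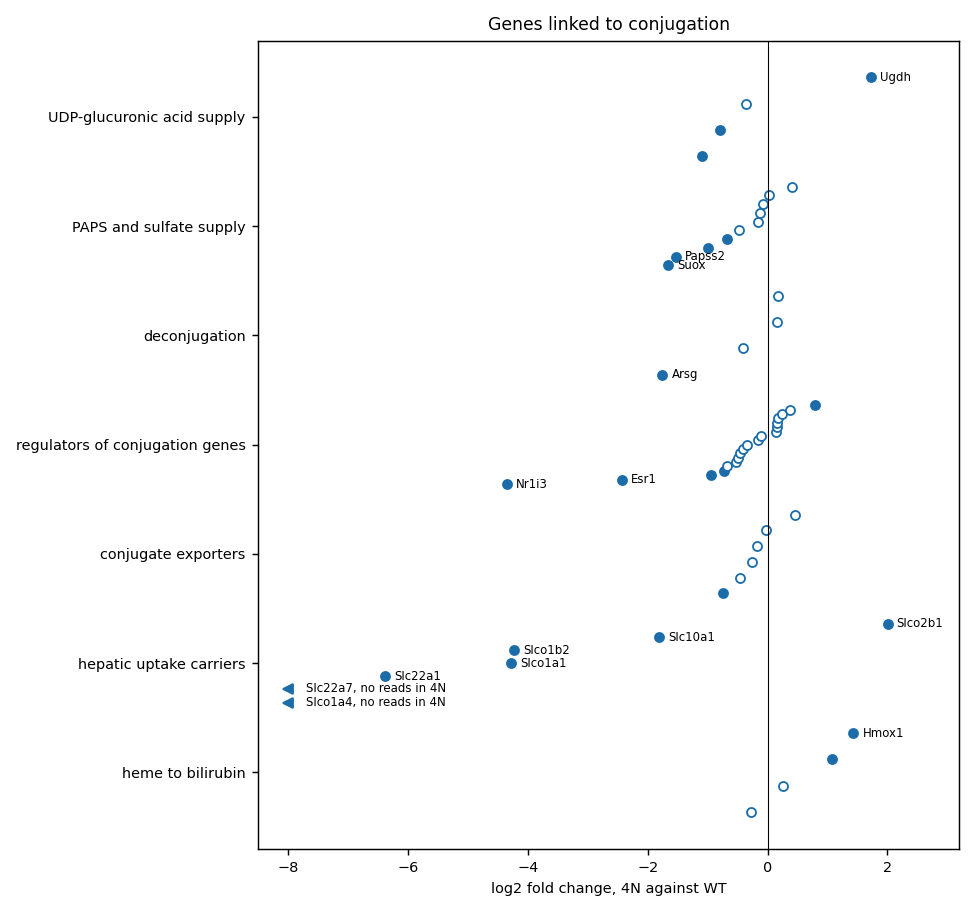
Log2 fold change of 4N against WT for genes that supply, regulate or transport, in 7 lists, from the authors' deposited table; filled symbols passed and triangles mark genes with no reads in 4N, drawn at the left edge with no value. Uptake carriers spread far to the left, exporters and most regulators stay near 0, and Ugdh and Hmox1 lie to the right.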

How the data were processed

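RNA of 5 livers (4N, 3 libraries; WT, 2) was sequenced as mRNA bound on poly-T beads and primed with random hexamers, per the labels. The submitters' processing notes name the build GRCm39; the aligner, counter and strand setting were not given in the sources used here. Per the file headers, the deposited table gives a mean signal (normalized count over all libraries), a log2 fold change and its SE on the log2 scale, a Wald statistic (a score, fold change over SE) and p-values with Benjamini-Hochberg adjusted p-values by the authors. These relations were checked on the values over 23022 genes. The p-values match 2-sided normal ones of the Wald statistic within 0.0021 log10 units, and the column names are those that DESeq2 writes, per the file headers.

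Calls are the authors' adjusted p under 0.05. The numerator is not named: of genes at the fit's lower limit, 12 negative and 0 positive ones had an SE under 1.44, the least possible if the empty group held 2 libraries, so negative values mean lower in 4N. Fitted group means were derived from mean and fold, weighting libraries equally. Members and lists were chosen with earlier results of these data known. Every member is named. Linked genes were named if called, up to 4 a direction by adjusted p. Papss1, Gusb, Tpmt, Nat2, Ugt8a, Blvra and Hmox2, which were not called, were added after their values were seen. Protein identity was replaced by coding sequence identity in GENCODE M21 (GRCm38), since no protein table was used. Alternatives were another threshold, a test against a 1.5-fold change, a minimum mean of 50, a t reference with 3 degrees of freedom, 2 recentrings and genes without reads left out. A planned motif and 3 genes are not reported here. The tests were tried on simulated data. Computation used scipy 1.17.1, numpy 2.4.6 and pandas 2.3.3 in Python 3.11.15, and figures matplotlib 3.10.9.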

Additional observations from a re-analysis of the deposited data

How the results depend on the processing

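Leaving out a library could not be run, since the table combines libraries. No paired analysis was possible because the groups share no replicate numbers and the columns carry none. No called member could change direction under these alternatives. Only the 2 recentrings alter the fold changes, by -0.05 or 0.62, and the called member nearest to equality, Ugt2b34, stood at -0.97. With the t reference every count of calls was 0, all genes and each subfamily included, with 2513 genes at an unadjusted p under 0.05. Against a 1.5-fold change the lower and higher calls were 588 and 521 for all genes, and lower calls were 12 for members, 1 for Ugt1, 2 for Ugt2 and 1 for Ugt3, with 12 lower and 2 higher linked genes. Recentring on plasma proteins gave 821 and 7313 for all genes, 4 higher members (1 Ugt1, 3 other Sult), 2 lower Ugt2, 1 lower Ugt3 and 32 higher linked genes (6 of 88 before). At an adjusted p under 0.01, 1210 genes were higher and 1 Ugt3 gene lower. Sult4a1 left the higher calls, 0 then, with a minimum mean of 50 or without genes lacking reads, and the latter left 1 lower Ugt3 gene. With mean transcript length, Ugt2b34 held 41.2% (WT) and 61.7% (4N) of the Ugt sum, and Sult1a1 56.2% and 78.0% of the Sult sum. Recentring on plasma proteins turned list medians to 0.045 (UDP-glucuronic acid), 0.29 (PAPS), 0.50 (deconjugation), 0.28 (regulators), 0.40 (exporters) and 0.48 (other conjugation enzymes), and recentring on abundant genes (means of 10000 or more) turned that of membrane sulfotransferases to -0.025. The cause was not tested.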

Other observations

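Enzymes that conjugate by other routes were measured in the same comparison, with values from the authors' deposited table. Of 12 genes for methyl, acetyl, acyl and glutathione conjugation, 3 fell, 1 rose and 8 did not pass. Over all genes, 7.41% fell and 7.94% rose. Inmt, an amine methyltransferase, fell from a fitted mean of 7521 to 27.1 (log2 fold change -8.12, SE 0.36) per the authors' deposited table. Glyat, which joins glycine to benzoate-like acids, fell from 3206 to 134 (-4.58, SE 0.30), and Baat, which joins bile acids to amino acids, fell from 3777 to 1381 (-1.45, SE 0.33), per the authors' deposited table. The glutathione transferase gene Gsta3 rose (0.75, SE 0.21) per the authors' deposited table. Tpmt and Nat2, which methylate thiopurines and acetylate arylamines, did not pass, at 0.08 and -0.13 in the authors' deposited table.

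Membrane-bound sulfotransferases and other users of UDP-sugars, which modify lipids, glycans and proteins instead of small molecules in the cytosol, mostly did not pass. Of 22 such genes, 1 fell, 0 rose and 21 were not called, where 7.41% of all genes fell and 7.94% rose. Their median log2 fold change was 0.03. Of the 34 Ugt and Sult members, 20 were lower. The 1 that fell was Gal3st1, which sulfates galactolipids (-0.97, SE 0.31, adjusted p = 0.017, per the authors' deposited table). Ugt8a, a ceramide galactosyltransferase of the Ugt superfamily outside the member rule, did not pass (-0.53, SE 0.48, per the authors' deposited table). Recentring on plasma proteins gave 0 lower and 10 higher genes of this list, and 4 higher among the 12 conjugation genes. The difference between these lists and the members was not tested.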
